A study of Mus musculus with 8 samples.

Results

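Of the 38 listed subunits of the co-repressor complexes that carry the histone deacetylases HDAC1 and HDAC2 (with the related HDAC3-carrying NCoR complex), 37 were measured, among 22694 genes tested on the arrays. Members were chosen by name as subunits of the SIN3, NuRD, CoREST, MiDAC and NCoR complexes, and their probes were found through the RefSeq accession of each probe. Chd3 was not analysed here, because no probe carried an accession that led to it. The cells were Six2+ nephron progenitors of C57BL/6 mice at embryonic day 15.5, sorted by their EGFP. Mutant cells came from Six2CreEGFP+; HDAC1&2f/f kidneys, in which both deacetylase genes are floxed, and wildtype cells from Six2CreEGFP+; HDAC1&2+/+ kidneys. Both groups carried the Six2-driven Cre and EGFP transgene, so it is shared by mutant and wildtype. Each group had 4 pools of cells, and the labels do not say how many animals a pool held. Agilent whole mouse genome arrays of 2 colours held the RNA of each pool in Cy5 and RNA of wildtype pool 1 in Cy3. Values are therefore log2 ratios to wildtype pool 1, and the wildtype pool 1 array carried the same RNA in both dyes.

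Histone deacetylases HDAC1 and HDAC2 remove acetyl groups from histone tails and act inside large multi-subunit complexes. SIN3A or SIN3B scaffolds the SIN3 complex; the NuRD complex pairs the deacetylases with a CHD remodelling ATPase and MTA scaffolds; the CoREST complex pairs them with the histone demethylase KDM1A (LSD1); the MiDAC complex assembles around DNTTIP1 with a TRERF1-type or MIDEAS scaffold. The NCoR complex is built around HDAC3 and is known for repression by nuclear receptors. DNA-binding proteins bring these complexes to genes. Six2+ progenitors of the cap mesenchyme renew themselves and give rise to the epithelium of the nephron.

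Pools 3 and 4 of each group differed in Cy5 by 0.0896 (mutant) and 0.0838 (wildtype) as a median absolute deviation on the log2 scale, against 0.0674 to 0.116 between Cy3 channels of the same RNA without the wildtype pool 2 array, up to 0.148 with it, and 0.163 to 0.595 between other Cy5 pairs of all arrays. They were therefore counted as 1 sample, which leaves 3 mutant and 3 wildtype samples, and p-values measure the spread between these samples only. A pair of arrays stood apart. On the mutant pool 1 array the median SD between probes of one gene was 0.245, against 0.0826 to 0.142 on the others. On the wildtype pool 2 array 48627 probes were well above background in Cy5, against 28150 to 33982 on the others. Values without one or both of these arrays are given below for the members they move most, and the plot of differences marks every member without mutant pool 1. In RNA from sorted pools, fewer cells of a type and less RNA per cell cannot be told apart.

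Promoters of 3 of the 5 members whose mutant samples all lay above the wildtype samples (Sin3a, Sin3b and Hmg20b, described below) are shown from RefSeq (build GRCm38.p6, 250 bases before to 50 after each transcription start). Those of Sap130 and Mta3, the rest of the 5, are not shown. Capitals mark matches to CCAAT or its reverse complement ATTGG, the sequence of the CCAAT box. Only the first of 3 overlapping Hmg20b starts is shown.
Sin3a, first start, chr9:57071790-57072089, plus strand: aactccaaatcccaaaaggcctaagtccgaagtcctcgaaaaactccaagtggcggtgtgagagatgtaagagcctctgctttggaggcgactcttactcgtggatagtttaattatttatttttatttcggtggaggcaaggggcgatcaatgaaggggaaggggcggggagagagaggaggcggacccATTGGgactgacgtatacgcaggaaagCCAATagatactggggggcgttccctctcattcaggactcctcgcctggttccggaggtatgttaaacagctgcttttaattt
Sin3a, second start, chr9:57076126-57076425, plus strand: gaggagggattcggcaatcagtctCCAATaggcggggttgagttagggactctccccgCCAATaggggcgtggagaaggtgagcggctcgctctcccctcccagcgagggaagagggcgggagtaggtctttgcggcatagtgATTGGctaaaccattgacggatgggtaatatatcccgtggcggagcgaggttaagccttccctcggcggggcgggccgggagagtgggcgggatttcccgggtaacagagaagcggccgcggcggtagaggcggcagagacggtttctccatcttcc
Sin3b, chr8:72723020-72723319, plus strand: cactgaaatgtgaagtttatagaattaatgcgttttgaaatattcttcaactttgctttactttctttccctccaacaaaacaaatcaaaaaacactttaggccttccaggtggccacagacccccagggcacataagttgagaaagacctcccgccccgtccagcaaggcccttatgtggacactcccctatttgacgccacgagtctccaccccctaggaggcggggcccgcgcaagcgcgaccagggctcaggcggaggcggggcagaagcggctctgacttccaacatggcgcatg
Hmg20b, first start, chr10:81350408-81350707, minus strand: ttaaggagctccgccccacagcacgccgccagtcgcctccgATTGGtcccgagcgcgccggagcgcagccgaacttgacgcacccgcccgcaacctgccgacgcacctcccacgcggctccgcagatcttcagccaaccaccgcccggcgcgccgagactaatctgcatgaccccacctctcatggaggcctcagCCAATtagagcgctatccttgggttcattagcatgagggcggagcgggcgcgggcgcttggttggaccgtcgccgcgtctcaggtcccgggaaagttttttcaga
The 2 Sin3a promoters held 2 and 3 matches, the Hmg20b promoter 2 and the Sin3b promoter none. Of the 38 members, 32 were matched to RefSeq promoters used here. Over their 47 promoters, 26 (55.3%) held a CCAAT match, against 37.4% of all 32851 promoters. The ETS-type letters CCGGAAG were in 6 (12.8%, against 8.86%) and the E-box CACGTG in 2 (4.26%, against 7.15%). Both strands were searched, matches may overlap, and starts of one gene can overlap. Member promoters were rich in CpG, with a median of 27 CpG dinucleotides against 7 over all promoters. These shares describe letters and show nothing of binding.

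The deacetylases themselves were read first, as a check of the labels. Hdac1 read -0.07, -0.14 and -0.20 in mutant pools, against 0.20, 0.14 and 0.15 in wildtype pools at its brightest probe (-0.30 ± 0.09, SE, adjusted p = 0.477), and its other probes differed by -0.57 ± 0.14 and -0.40 ± 0.09. The probe at -0.57 read -0.9, -0.38 and -0.56 in mutant pools, against -0.06, -0.07 and -0.01 in wildtype pools. The probe at -0.40 read -0.63, -0.64 and -0.68 in mutant pools, against -0.28, -0.21 and -0.26 in wildtype pools. At every Hdac1 probe all mutant samples thus lay below all wildtype samples. Whether any Hdac1 or Hdac2 probe falls inside a floxed exon was not examined, and a probe outside it may not report the deletion. Hdac2 read -0.54, -0.04 and -0.28 in mutant pools, against -0.07, -0.18 and -0.21 in wildtype pools (-0.13 ± 0.14, SE, adjusted p = 0.84).

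None of the 37 members passed the adjusted threshold of 0.05 in limma, where 8 of 22694 genes (0.0353%) did. The members' median log2 difference, mutant minus wildtype, was -0.000581, against 0.0016 over all genes. In mean, 18 members were higher and 19 lower, where 11440 of all genes were higher and 11254 lower. At an unadjusted p under 0.05, 2 members were higher (5.41% of members, against 4.45% of all genes) and none was lower (against 2.78% of all genes). The 3 mutant samples all lay above the 3 wildtype samples for 5 members (13.5%, against 8.58% of genes) and all below for 3 members (8.11%, against 5.86%). The first 5 were Sin3a, Sin3b, Sap130, Mta3 and Hmg20b, and the other 3 were Rbbp7, Ncor1 and Tbl1xr1. The brightest probe of each of the 37 members was well above background on all 8 arrays. In a fit blocked on pool number, 34 genes passed (0.15%) and again no member. In the blocked fit 2 members were higher at an unadjusted p under 0.05 (against 7.76% of genes), and none was lower (against 4.89%). Every member's 95% interval of the fit lay within a 2-fold difference in either direction, as for 21444 of 22694 genes. For 32 of 37 members it lay within 1.5-fold, as for 16419 of all genes. These intervals leave out shifts with the scaling: Sin3a differed by 0.14 with spike-in centring and by 0.54 with Cy5 alone. The 5 with wider intervals were Suds3, Mta1, Mbd2, Zmym2 and Ncor1. Each of these 5 was lowest of all samples in mutant pool 1.

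**Figure D1:**
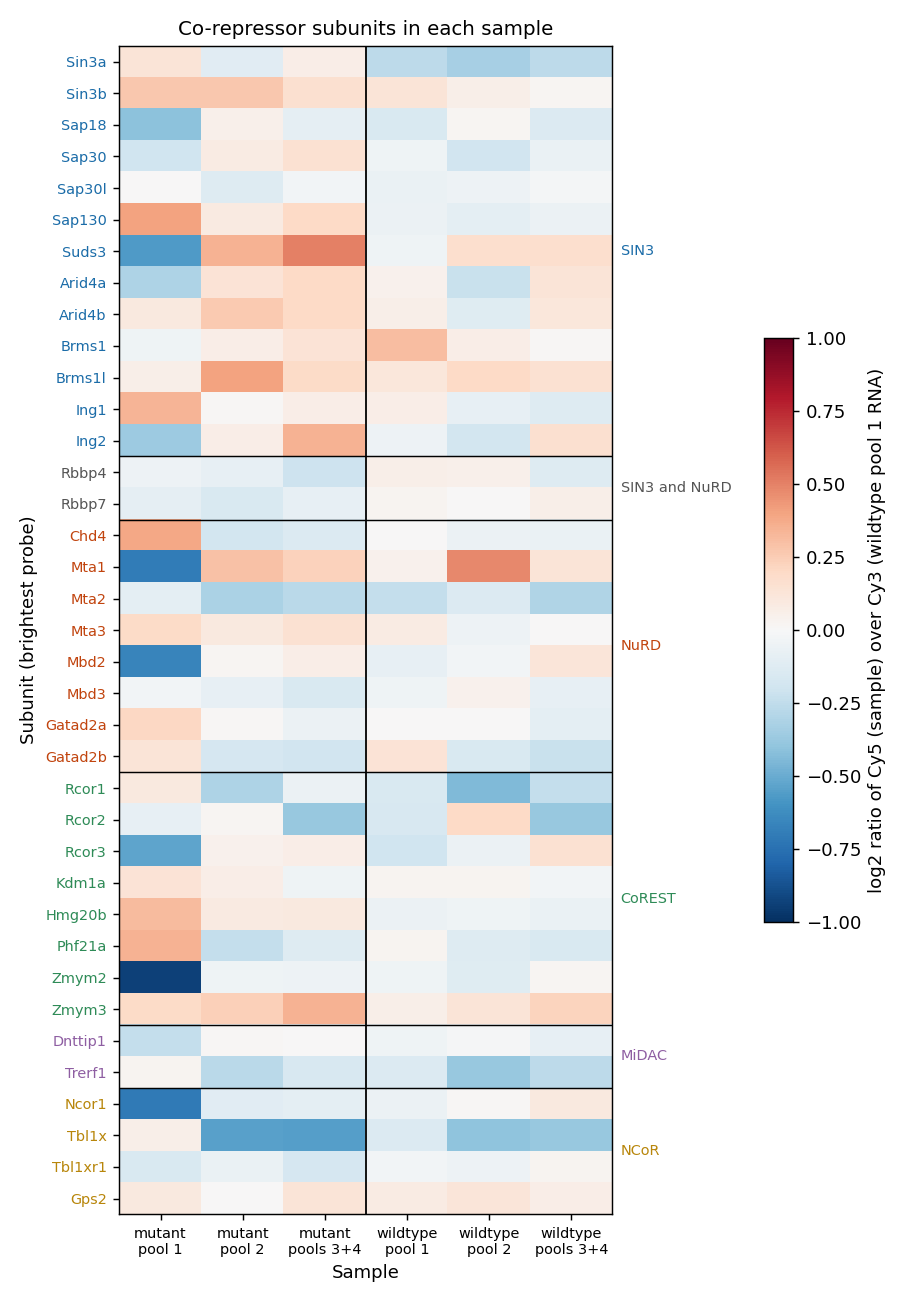
Log2 ratio of Cy5 (sample) over Cy3 (wildtype pool 1 RNA) for the brightest probe of each of the 37 measured subunits, in 3 mutant and 3 wildtype samples, grouped by complex. Mutant pool 1 holds the darkest blue cells, down to -0.93 for Zmym2, and Sin3a is above all its wildtype samples in every mutant sample.

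The SIN3 complex held both members with the smallest p-values, Sin3a and Sap130, each measured by 1 probe only. Of the 13 measured SIN3 subunits outside the shared histone chaperones, 9 were higher and 4 lower in mean. Of all 22694 genes, 11440 were higher and 11254 lower. Their median was 0.06, or -0.111 when arrays were centred on the spike-in probes, which moved the median of all genes to -0.17. Relative to all genes SIN3 stood at 0.06 with and without that centring. The 3 SIN3 members without overlap between groups at the brightest probe (Sin3a, Sin3b and Sap130) were all higher in mutant. Over all genes, 8.58% were higher without overlap and 5.86% lower. The second Sin3b probe had the opposite sign (-0.27). Sin3a, which scaffolds the complex and binds the deacetylases, read 0.13, -0.11 and 0.07 in mutant pools 1, 2 and 3 with 4, against -0.26, -0.33 and -0.26 in the matching wildtype pools. Its difference was 0.31 ± 0.10 (SE), a 1.24-fold higher mutant level, with a limma p of 0.0171 and an adjusted p of 0.526. All mutant samples lay above all wildtype samples. The self-self array read -0.26 for Sin3a, where the RNA in both dyes is the same, and the other wildtype arrays read about as low. Sap130, a subunit that binds SIN3A, read 0.40, 0.09 and 0.20 in mutant pools, against -0.06, -0.10 and -0.06 in wildtype pools, a difference of 0.30 ± 0.11 (SE). The limma test gave Sap130 a p of 0.0248 and an adjusted p of 0.587. Here too the groups did not overlap, and the highest value was mutant pool 1. Without the wildtype pool 2 array Sin3a differed by 0.29 and Sap130 by 0.29, with unadjusted limma p-values of 0.0518 and 0.064. Without the mutant pool 1 array they differed by 0.26 and 0.22, with unadjusted limma p-values of 0.0285 and 0.0361.

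Sin3b, the second scaffold, was measured by 2 probes that disagreed. The brighter probe read 0.27, 0.27 and 0.16 in mutant pools, against 0.13, 0.06 and 0.02 in wildtype pools, a difference of 0.17 ± 0.09 (SE, adjusted p = 0.779) with no overlap. The other probe, annotated to another RefSeq transcript, read -0.32, -0.19 and 0.04 in mutant pools, against -0.13, 0.60 and -0.13 in wildtype pools, a difference of -0.27 ± 0.22 (SE). The value of 0.60 belongs to the wildtype pool 2 array, and without it the mutant and wildtype ranges of that probe still overlap. Ing1, which reads methylated lysine 4 of histone H3 through its PHD finger, had 3 probes. The brightest read 0.34, 0.01 and 0.07 in mutant pools and 0.07, -0.08 and -0.13 in wildtype pools (0.19 ± 0.12, SE). Another Ing1 probe read 0.46, 0.09 and 0.17 in mutant pools, against 0.02, -0.10 and -0.09 in wildtype pools (0.30 ± 0.12, SE), with no overlap. The Ing1 probe that disagreed read -1.05 in mutant pool 1 but 0.45 and 0.39 in the other mutant pools, against -0.06, 0.17 and 0.18 in wildtype pools, so its difference of -0.17 ± 0.38 rested on that one array.

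The most negative SIN3 member was Brms1, a metastasis-suppressor subunit of the complex. It read -0.04, 0.07 and 0.14 in mutant pools, against 0.31, 0.07 and 0.01 in wildtype pools (-0.08 ± 0.11, SE, adjusted p = 0.883). Its paralog Brms1l differed by 0.06, and the groups of both overlapped. At their brightest probes the remaining SIN3 members had overlapping groups. Their differences lay between -0.06 (Sap18) and 0.17 (Arid4b, a chromodomain and ARID protein of the complex), with Sap30, Sap30l, Arid4a and Ing2 between these. Arid4a differed by 0.03 ± 0.17 (SE) at its brightest probe and by 0.29 ± 0.19 and 0.34 ± 0.12 at the others. The Arid4a probe at 0.34 read 0.51, 0.27 and 0.33 in mutant pools, against 0.13, -0.14 and 0.11 in wildtype pools, with no overlap. Without mutant pool 1 the brightest probes of Arid4a, Ing2, Sap18 and Ing1 differed by 0.19, 0.23, 0.07 and 0.09. Without wildtype pool 2 Arid4a and Ing2 differed by -0.07 and -0.04. Suds3, a core subunit of the complex, read -0.57, 0.35 and 0.50 in mutant pools, against -0.04, 0.17 and 0.17 in wildtype pools. Its mean difference of -0.01 ± 0.27 thus averaged a low mutant pool 1 and 2 high mutant pools. Without the mutant pool 1 array Suds3 differed by 0.32 (limma adjusted p = 0.494). Without that array the SIN3 median was 0.192, with 11 of 13 subunits higher in mean, where the median over all genes was 0.0146 and 54.1% of genes were higher. Without the mutant pool 2 array the SIN3 median was 0.0279.

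The histone chaperones RBBP4 and RBBP7 belong to both the SIN3 and the NuRD complexes. Rbbp7 read -0.09, -0.15 and -0.08 in mutant pools, against 0.03, 0.00 and 0.06 in wildtype pools, a difference of -0.13 ± 0.09 (SE, adjusted p = 0.804), with no overlap. Its second probe read -1.28, 0.16 and 0.17 in mutant pools, against -0.19, 0.21 and 0.21 in wildtype pools (-0.39 ± 0.38, SE), so it was lower in every pair, by the most in pool 1. Rbbp4 read -0.05, -0.08 and -0.21 in mutant pools and 0.06, 0.05 and -0.13 in wildtype pools at its brighter probe (-0.11 ± 0.10, SE). Its other probe read -0.25, 0.02 and 0.17 in mutant pools and -0.10, -0.16 and -0.09 in wildtype pools (0.10 ± 0.13, SE), of opposite sign.

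The NuRD complex showed no common direction. Of its 8 measured subunits 3 were higher and 5 lower in mean. Their median of -0.00206 was -0.175 with spike-in centring and 0.111 with Cy5 alone, where the median of all genes was -0.17 and 0.134. Relative to all genes NuRD stood at 0.0 with spike-in centring and -0.02 with Cy5 alone. Mta3, an MTA scaffold that docks the deacetylases, read 0.19, 0.10 and 0.15 in mutant pools, against 0.08, -0.05 and 0.00 in wildtype pools. Its difference was 0.13 ± 0.09 (SE, adjusted p = 0.812), and the groups did not overlap. Its other probe differed by 0.08 ± 0.16 (SE). Mta1, the lowest NuRD member, read -0.70, 0.29 and 0.23 in mutant pools, against 0.04, 0.48 and 0.13 in wildtype pools (-0.28 ± 0.27, SE, adjusted p = 0.835). The Mta1 difference was 0.04 without mutant pool 1 and -0.14 without wildtype pool 2. Mta2 differed by 0.00 ± 0.10 (SE).

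Mbd2, which binds methylated DNA, read -0.66, 0.02 and 0.07 in mutant pools, against -0.08, -0.03 and 0.12 in wildtype pools (-0.19 ± 0.20, SE), and 0.04 without mutant pool 1. Mbd3, its close relative, differed by -0.05 ± 0.09 (SE) at the brighter probe and by -0.48 ± 0.42 at the other, which read -1.20 in mutant pool 1, 0.43 and 0.35 in the other mutant pools, and 0.14, 0.58 and 0.30 in wildtype pools. Chd4, the remodelling ATPase, read 0.39, -0.18 and -0.14 in mutant pools, against 0.00, -0.06 and -0.07 in wildtype pools (0.07 ± 0.16, SE), with mutant pool 1 alone high, and -0.11 without that array. Gatad2a, one of the zinc-finger subunits, read 0.21, 0.01 and -0.06 in mutant pools and 0.00, 0.00 and -0.10 in wildtype pools at its brightest probe (0.08 ± 0.11, SE). Its other probes differed by 0.04 ± 0.12 and -0.01 ± 0.19 (SE). Gatad2b, its paralog, differed by 0.00 ± 0.14 (SE). Without mutant pool 1 Gatad2a differed by 0.01 and Gatad2b by -0.10.

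In the CoREST complex 5 of 8 subunits were higher and 3 lower in mean. Their median of 0.06 was -0.113 with spike-in centring, where the median of all genes was -0.17. Relative to all genes CoREST stood at 0.06 with and without that centring, but at -0.09 with Cy5 alone. Hmg20b, an HMG-box subunit, read 0.32, 0.09 and 0.10 in mutant pools, against -0.06, -0.04 and -0.07 in wildtype pools. Its difference was 0.22 ± 0.10 (SE, adjusted p = 0.73), with no overlap between groups. Rcor1, the CoREST scaffold, read 0.10, -0.31 and -0.06 in mutant pools, against -0.15, -0.44 and -0.24 in wildtype pools (0.18 ± 0.14, SE). Each mutant pool was above the same-numbered wildtype pool, by 0.24, 0.13 and 0.18, while the groups overlapped. The Rcor1 difference was 0.09 without mutant pool 1, 0.10 without wildtype pool 2 and 0.01 without both arrays. Its second probe differed by 0.15 ± 0.22 (SE). Kdm1a, the demethylase, differed by 0.04 ± 0.09 (SE), and Rcor2 and Rcor3, the other scaffolds, by -0.03 and -0.10. Rcor2 differed by 0.13 without wildtype pool 2, and Rcor3 by 0.09 without mutant pool 1.

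Zmym2, a zinc-finger protein of the complex, was the lowest CoREST member. It read -0.93, -0.04 and -0.05 in mutant pools, against -0.04, -0.12 and 0.02 in wildtype pools (-0.29 ± 0.24, SE, adjusted p = 0.82). The difference came to 0.00 without mutant pool 1, and the other Zmym2 probe read -0.09 in that pool and differed by -0.06 ± 0.14 (SE). Zmym3 read 0.19, 0.24 and 0.35 in mutant pools and 0.06, 0.13 and 0.22 in wildtype pools at the brighter probe (0.12 ± 0.10, SE), but the other probe differed by -0.03 ± 0.14. Phf21a, which reads unmethylated lysine 4 of histone H3, read 0.35, -0.24 and -0.13 in mutant pools, against 0.03, -0.13 and -0.15 in wildtype pools (0.07 ± 0.17, SE), with its 3 probes between -0.06 and 0.08. Without mutant pool 1 the Phf21a difference was -0.10.

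MiDAC had 2 measured members, with a median of 0.05 that was -0.127 with spike-in centring, where the median of all genes was -0.17. Relative to all genes MiDAC stood at 0.04 with and without that centring. Trerf1, a scaffold, read 0.03, -0.27 and -0.16 in mutant pools, against -0.14, -0.38 and -0.26 in wildtype pools (0.13 ± 0.12, SE). All mutant pools were above the matching wildtype pools by 0.17, 0.11 and 0.10, and the groups overlapped. Trerf1 differed by 0.04 without mutant pool 1, 0.07 without wildtype pool 2 and -0.02 without both arrays. Its second probe was not kept, being well above background on 1 mutant and 2 wildtype arrays. Dnttip1, the dimerizing scaffold, read -0.24, 0.01 and 0.00 in mutant pools, against -0.04, -0.01 and -0.08 in wildtype pools (-0.03 ± 0.11, SE). Its other probe read -1.01, 0.38 and 0.26 in mutant pools, against -0.08, 0.29 and 0.13 in wildtype pools (-0.24 ± 0.35, SE), again low in mutant pool 1 only.

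All 4 NCoR members were lower in mean in mutant cells, as were 11254 of all 22694 genes. Of the 4, Gps2 (-0.01 ± 0.09, SE) and Tbl1x (-0.03 ± 0.18, SE) lay near no difference. In the pool 1 pair Gps2 and Tbl1x were higher, by 0.02 and 0.20. The NCoR median of -0.07 was 0.0129 with median centring and 0.0194 with Cy5 alone, where the median of all genes was 0.0732 and 0.134. Relative to all genes NCoR stood at -0.06 with median centring, -0.11 with Cy5 alone and -0.08 in the reported fit. All 4 were also lower without the mutant pool 1 array, in the reported scaling. The 2 that did not overlap at the brightest probe were Ncor1 and Tbl1xr1, where 5.86% of all genes were lower without overlap. Ncor1, the scaffold that binds unliganded nuclear receptors and HDAC3, read -0.71, -0.11 and -0.10 in mutant pools, against -0.06, 0.01 and 0.10 in wildtype pools (-0.33 ± 0.18, SE, adjusted p = 0.778). Without mutant pool 1 its difference was -0.12. Other probes of Ncor1, annotated to other RefSeq transcripts, differed by -0.03 ± 0.14 and 0.10 ± 0.14 (SE). They overlapped between groups, and the more positive one read -0.07, 0.38 and 0.06 in mutant pools.

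Tbl1xr1, a WD40-repeat subunit, read -0.15, -0.07 and -0.17 in mutant pools, against -0.03, -0.05 and 0.03 in wildtype pools (-0.11 ± 0.09, SE, adjusted p = 0.82), and its second probe differed by -0.17 ± 0.15. Its paralog Tbl1x read 0.06, -0.54 and -0.55 in mutant pools, against -0.14, -0.40 and -0.38 in wildtype pools, with a difference of -0.03 ± 0.18 (SE). It was -0.24 without mutant pool 1. Gps2, a small core subunit and the NCoR member nearest to no difference (-0.01 ± 0.09, SE), read 0.10, 0.00 and 0.13 in mutant pools, against 0.08, 0.12 and 0.07 in wildtype pools.

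**Figure D2:**
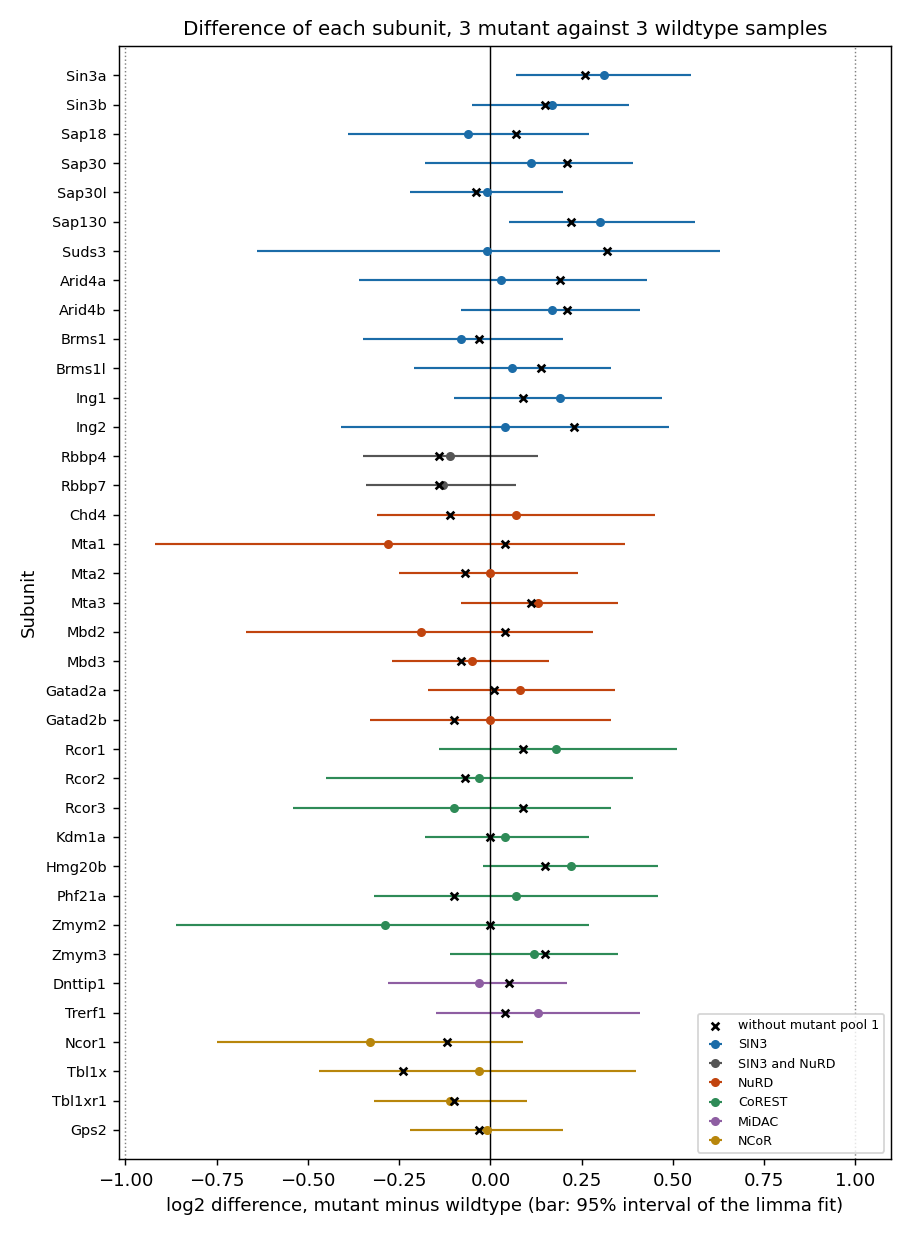
Log2 difference, mutant minus wildtype, of each measured subunit (points, coloured by complex) with the 95% interval of the limma fit, and the same difference without the mutant pool 1 array (crosses). All intervals lie inside the dotted lines at a 2-fold difference, and the crosses of Suds3, Mta1, Mbd2, Zmym2 and Ncor1 lie well right of their points.

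**Figure D3:**
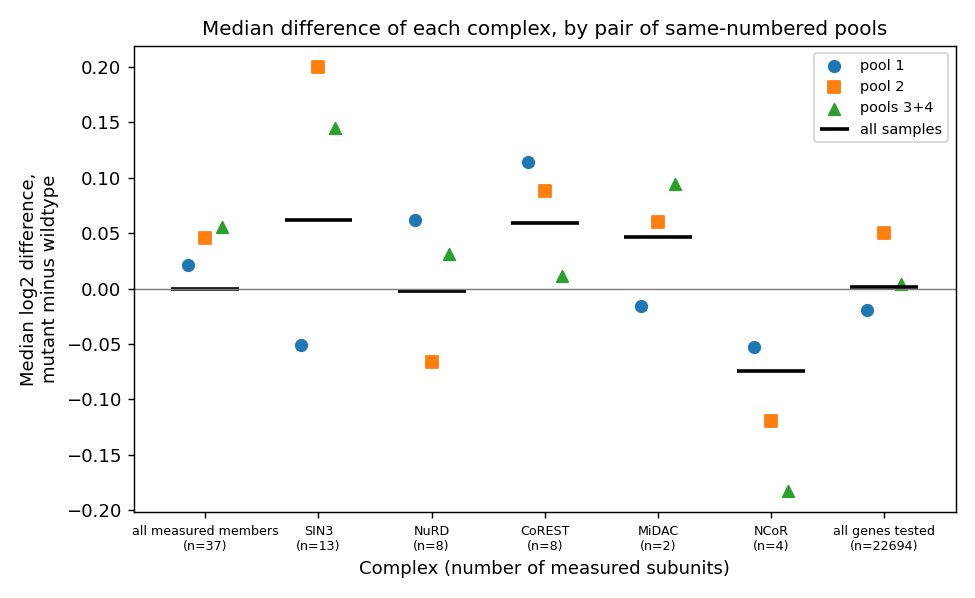
Median log2 difference, mutant minus wildtype, over the subunits of each complex, for the pool 1 pair (circles), the pool 2 pair (squares) and the pair of pools 3 and 4 (triangles), with the median of the fitted differences as bars. SIN3 stands at -0.05, 0.20 and 0.14 by pair, and NCoR is below 0 in all 3 pairs. The fitted NCoR median is -0.07 in this scaling, 0.0129 with median centring and 0.0194 with Cy5 alone. The median of all genes was 0.0732 with median centring and 0.134 with Cy5 alone, and NCoR relative to it -0.06 and -0.11.

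Complex medians were small and differed across pairs of same-numbered pools. SIN3 medians were -0.05 in pool 1, 0.20 in pool 2 and 0.14 in pools 3 and 4. NCoR medians were -0.05, -0.12 and -0.18, and CoREST medians 0.11, 0.09 and 0.01, while NuRD gave 0.06, -0.07 and 0.03. The MiDAC medians, over 2 genes, were -0.02, 0.06 and 0.09. The median SD between mutant samples was 0.154 for members and 0.17 for all genes, and between wildtype samples 0.0789 and 0.116. In mutant pool 1, 27 of 37 members (73.0%) had their highest or lowest value of the 6 samples, against 62.0% of all genes, with 13 lowest and 14 highest.

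Paralogs within a complex were compared by the difference of their log2 ratios within each sample, over 16 pairs. Zmym2 minus Zmym3 was the only pair without overlap. It read -1.12, -0.28 and -0.40 in mutant pools, against -0.10, -0.25 and -0.20 in wildtype pools, a difference of -0.41. This contrast used the brighter probe of each gene, and in mutant pool 1 those read -0.93 for Zmym2 and 0.19 for Zmym3. The other probes read -0.09 and -0.36 there, and their contrast was not tested. The exact two-sided permutation test gave p = 0.1, the smallest that 3 against 3 samples allow, and an adjusted p of 0.873 over the 16 pairs. Sin3a minus Sin3b read -0.14, -0.38 and -0.09 in mutant pools, against -0.39, -0.40 and -0.27 in wildtype pools (exact permutation p = 0.2, adjusted p = 0.873). The groups overlapped here because mutant pool 2 lay among the wildtype values. The remaining pairs also overlapped.

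Probes of one subunit read furthest apart on the mutant pool 1 array. Of the 17 members with several kept probes, 10 had probes that read over 0.5 apart on the mutant pool 1 array. This number was 2 in mutant pool 2, none in mutant pools 3 and 4, 2 in wildtype pool 2, and none in the other wildtype samples. Of the 22 other probes, 7 read over 0.5 below the brightest probe in mutant pool 1 and none did elsewhere, with a median offset of -0.319 there. The probes of Gatad2a, Ing1, Ncor1, Phf21a, Rbbp4, Sin3b and Zmym3 gave mutant-minus-wildtype differences of opposite sign, and the widest spread of differences was 0.46 for Ing1. No member's probes were over 0.5 apart in their differences.

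**Figure D4:**
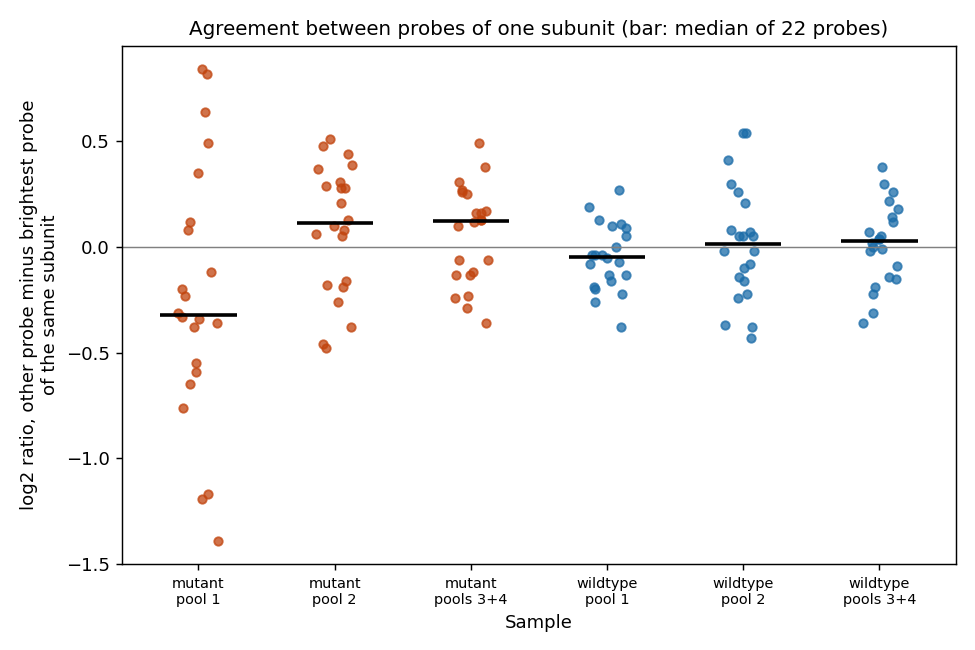
Log2 ratio of each of 22 further probes minus that of the brightest probe of the same subunit, in 3 mutant (orange) and 3 wildtype (blue) samples, with the median as a bar. In mutant pool 1 the points reach from -1.39 to 0.84 with a median of -0.319, and the other samples lie closer to 0.

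Other subunits and partners of the complexes, a list of 19 genes that were all measured, gave no call. Their median difference was -0.00216. Hdac1 was the lowest and the only one at an unadjusted p under 0.05, where 2.78% of all genes were lower and 4.45% higher. It was also the only one with all mutant samples below the wildtype samples (5.86% of all genes). The highest was Hdac3, the catalytic subunit of NCoR, at 0.37 ± 0.26 (SE, adjusted p = 0.816). Hdac3 read 0.86, -0.03 and -0.10 in mutant pools, against 0.04, -0.30 and -0.12 in wildtype pools, so its mean rested on mutant pool 1. Gse1, a CoREST-associated protein, was the only one of the 19 with all mutant samples above the wildtype samples (8.58% of all genes), at 0.17 ± 0.10 (SE).

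DNA-binding recruiters of the complexes gave no call among 20 measured of 23 listed (Mxi1, Gfi1 and Gfi1b were not measured), with a median of 0.02. At an unadjusted p under 0.05, 3 of the 20 were higher (Bcl11a, Mxd3 and Snai2; 4.45% of all genes were) and none was lower (2.78% of all genes). These 3, Mxd1 and Mnt had all mutant samples above the wildtype samples, as 8.58% of all genes did. Bcl11a, a zinc-finger repressor that binds NuRD, read 0.38, 0.39 and 0.25 in mutant pools, against 0.10, 0.06 and -0.13 in wildtype pools (0.33 ± 0.10, SE, adjusted p = 0.502). Mxd1, a MAX partner that binds SIN3 through its SID, was the highest, reading 0.50, -0.04 and 0.14 in mutant pools, against -0.19, -0.06 and -0.20 in wildtype pools (0.35 ± 0.15, SE, adjusted p = 0.701). Rest, which recruits CoREST and SIN3 to neuronal genes, was lowest, at -0.98, 0.24 and 0.13 in mutant pools, against 0.02, 0.20 and 0.19 in wildtype pools (-0.33 ± 0.31, SE), a value set by mutant pool 1.

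Markers of cell types that the sort could hold were read beside the members. All 8 nephron progenitor markers were measured, and Cited1, a marker of the least committed progenitors, was the only one called, at -2.72 ± 0.13 (SE, adjusted p = 0.00283). Six2 itself differed by -0.13 ± 0.14. Cited1 and Itga8 (-0.34 ± 0.13, SE, adjusted p = 0.633) had all mutant samples below the wildtype samples, as 5.86% of all genes did. Meox1 (-0.48 ± 0.21), Crym (-0.31 ± 0.15) and Osr1 (-0.18 ± 0.16) were also lower in all 3 pairs, but with overlapping groups. Sall1 (-0.02 ± 0.21) and Eya1 (0.05 ± 0.10) had overlapping groups too. As means over each list, nephron progenitor markers lay at -0.62 to -0.36 in mutant and 0.01 to 0.07 in wildtype samples. That mean includes Cited1, which alone read -2.71, -2.78 and -2.95 in mutant samples, so it does not describe the list as a whole. Ureteric bud markers lay at 0.03 to 0.28 in mutant and -0.29 to -0.15 in wildtype samples, and stroma markers at 0.18 to 0.39 in mutant and 0.04 to 0.10 in wildtype samples. Proximal tubule markers lay at -2.58 to -0.60 in mutant and -1.61 to 1.02 in wildtype samples, and podocyte markers at -1.40 to -0.54 in mutant and -1.12 to 0.82 in wildtype samples. Of the 5 ureteric bud markers, 3 (Ret, Wnt9b and Gata3) had all mutant samples above the wildtype samples, against 8.58% of all genes. Endothelial markers lay at -0.23 to 0.22 in mutant and -0.25 to 0.10 in wildtype samples, and erythroid markers at -0.35 to 0.52 in mutant and -0.35 to 0.23 in wildtype samples. Leukocyte markers (3 of 4 measured) lay at -0.45 to 0.19 in mutant and -0.22 to 0.03 in wildtype samples. The part of these markers in the members' values was not tested.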

How the data were processed

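Two-colour Agilent arrays were read in 4 mutant and 4 wildtype pools. Per the file headers, the scanner files give intensity per spot, unlogged, and the authors' deposited value table holds log10 ratios of Cy5 over Cy3. Agilent Feature Extraction 10.7.3.1 made them, per the submitters' processing notes. Median spot signals were corrected for background (limma 3.58.1, normexp with an offset of 50) and normalized by loess within each array in R 4.3.3. A probe was kept if either group had 3 or more of its 4 arrays well above background in Cy5 (30364 of 55681 probes), and the brightest probe stood for each gene. Symbols came from each probe's RefSeq accession. Pools 3 and 4 were averaged. The mutant-wildtype contrast was tested in limma (lmFit, eBayes; two-sided, Benjamini-Hochberg over 22694 genes, threshold 0.05).

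Same-numbered samples correlated in their deviations from group means (r = 0.496, 0.543 and 0.527), so pool numbers were taken, from the data, to pair the samples. All arrays lie on 1 slide, mutant in one row and wildtype in the other, so group and slide row cannot be told apart. The members and gene lists were chosen with earlier results of these data known. Named genes were members with an unadjusted p under 0.05, without overlap between groups, with disagreeing probes, or at either end of a complex. Precision is limited by the number of arrays.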

Additional observations from a re-analysis of the deposited data

How the results depend on the processing

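Over 27 alternatives, 26 of them planned and 1 (without the mutant 1 and wildtype 2 arrays together) chosen after seeing the data, no member was called, and 65 of 999 member values moved by over 1 SD. The 8 genes called numbered 257 with the 8 arrays as separate samples, 34 with the replicate block, 2 with local background subtracted, 5 with spike-in centring and with the trended robust variance, 0 with Cy5 alone (958 at an unadjusted p under 0.05), and 1 to 10 with single arrays or samples left out (4 without wildtype 1 and without wildtype 2, 3 without mutant 3 and 4, 1 without wildtype 3 and 4). In the blocked fit they numbered 0 without the pools 1 pair (3176 unadjusted), 46 without the pools 2 pair and 0 without the pools 3 and 4 pair (1493 unadjusted). The replicate block changed no member's call. The 2 members at an unadjusted p under 0.05 became 4 (8 arrays), 0 (spike-in centring), 1 (Cy5 alone), 0 to 3 (leaving out: 0 without wildtype 2 and without mutant 3 and 4, 1 without wildtype 1 and without wildtype 3 and 4), 5 (block without pools 1), 0 (block without pools 3 and 4) and 1 (without mutant 1 and wildtype 2).

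The median of all genes moved to -0.17 with spike-in centring, 0.134 with Cy5 alone and 0.0732 with median centring (0.0016 as reported). The spike-in shift was 0.453 on the mutant pool 1 array and -0.196 to 0.105 on the others. Spike-in centring without mutant pool 1 was not run. The all-member median was 0.029 (8 arrays), 0.0246 (local background), 0.043 (Feature Extraction log ratios), 0.0994 (median centring), 0.0263 (scaling), -0.174 (spike-in), 0.143 (Cy5 alone), 0.000244 to 0.0432 (leaving out), 0.0213 and 0.0252 (block without pools 1 and without pools 2) and 0.0238 (without mutant 1 and wildtype 2). With spike-in centring SIN3 was -0.111, NuRD -0.175, CoREST -0.113, MiDAC -0.127 and NCoR -0.247. With Cy5 alone SIN3 was 0.248, NuRD 0.111, CoREST 0.0445, MiDAC 0.303 and NCoR 0.0194. With median centring NuRD was 0.087, CoREST 0.178, MiDAC 0.125 and NCoR 0.0129. MiDAC was 0.116 with Feature Extraction log ratios, and SIN3 was 0.218 in the block without pools 1 and 0.0252 in the block without pools 2. Leaving out single arrays or samples gave 0.0279 to 0.192 for SIN3, -0.0567 to 0.0446 for NuRD and 0.0329 to 0.0893 for CoREST. The causes were not tested. Relative to all genes, SIN3 stood at 0.06, CoREST at 0.06 and NCoR at -0.08 with spike-in centring and in the reported fit, and at 0.11, -0.09 and -0.11 with Cy5 alone. The number of arrays, 3 samples a group, limits what could be detected.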
